A study of Mus musculus with 6 samples.

Results

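A set of 9 genes that mark monocytes and macrophages was followed from normal myeloid progenitors (MPs) to c-Kit+ acute promyelocytic leukemia (APL) progenitors of the mouse. They were Ly86, Cd14, Itgam, Itgax, Emr1, Ly6c2, Fcgr1, Lyz2 and Batf3, chosen by name. All 9 were present among the 16440 genes of the deposited table. The RNA sequencing covered 6 libraries, 3 from each cell population, all on the FVB N/J background. Normal MPs were Lin-Sca-1-c-Kit+ bone marrow cells, a mixture of granulocytic, monocytic, megakaryocytic and erythroid precursors. APL cells came from hMRP8-PML/RARα transgenic mice, in which a myeloid promoter drives the fusion gene. They had been marked with GFP by a retrovirus and expanded in syngeneic recipients before GFP-labeled c-Kit+ cells were sorted. The labels name no treatment and no age, and the methods of the study describe young adult recipients, irradiated or not. After labeling, the GFP+ cells were first transplanted into sublethally irradiated mice. Whether the cells sequenced came from these mice or from later recipients is not stated. The 3 libraries of a population are described as biological replicates, but whether they derive from 3 leukemias or from 1 is not stated. The comparison asks which monocytic genes are low together with Irf8, the transcription factor that steers myeloid progenitors toward monocytes and dendritic cells, and which are not.

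Monocytes arise from granulocyte-monocyte progenitors and give rise to part of the macrophages and dendritic cells of tissues. Their identity is read from surface receptors for bacterial products and antibodies, from integrins that let them adhere and take up particles, and from lysosomal enzymes. Several of these genes are shared with granulocytes, so that none of them alone defines a monocyte. The 9 genes lie on 8 chromosomes, with Itgam and Itgax as neighbours on chromosome 7.

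Values of a population are given in the order of libraries 1 to 3. Expression is given as scaled fragments, which are estimated fragments per gene after scaling of each library by the authors' processing, and as FPKM, which also divides by transcript length and is used wherever 1 gene is compared with another. Before scaling, the libraries held between 20608715 and 28382785 fragments. Differential expression was tested with limma on log2(scaled fragments + 1) over 14595 genes, with Benjamini-Hochberg adjustment over all of them. Genes with an adjusted p under 0.05 and a fold change over 1.5 are called lower or higher. The sorting marker Kit was abundant in both populations, with 72.4 ± 1.96 FPKM in normal MPs and 40.4 ± 0.623 in APL progenitors (SD, n = 3 each), and Ly6a, which encodes Sca-1, was low in both at 1.36 ± 0.355 and 2.18 ± 0.175 FPKM. Both were themselves called, Kit lower and Ly6a higher in APL progenitors. MP library 3 differed more from the other MP libraries than these differed from each other, and MP library 2 had the lowest value of the MP libraries for 9 of the 9 identity genes, against 36.4% of all genes tested.

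Most of the monocytic identity genes were higher, not lower, in APL progenitors. Ly6c2, Emr1, Lyz2, Cd14 and Itgam rose between 2.01-fold and 12.2-fold, and Ly86 alone among the 8 genes tested was called lower, by 26.7-fold. Itgax and Fcgr1 did not pass the test, and Batf3 had too few fragments to enter it. Thus 5 of 8 were higher and 1 of 8 was lower, while 21.7% of all genes tested were called higher, 24.4% lower and 46.1% in either direction. Over the 8 genes the log2 fold change had a median of 1.20, against -0.10 over all genes tested. For 7 of the 8 the groups did not overlap, a separation seen for 70.9% of all genes tested. The APL libraries lay wholly above the MP libraries for 6 of them and wholly below for Ly86, against 31.1% and 39.8% of all genes tested. The same 1 gene was lower without MP library 2 and without MP library 3, and 5 and 6 genes were higher, the added gene being Itgax. Itgax was also added without MP library 1, and Fcgr1 without APL library 3. A two-sided exact permutation test of a single gene cannot go below p = 0.1 with 3 libraries against 3, and it gave this value for each of the 9 genes except Fcgr1. The sorts also differed. Normal MPs were Lin-, whereas the study took all c-Kit+ APL cells, some of which carry CD11b, the product of Itgam. For these genes, an effect of the unequal gates cannot be told apart from a difference between the populations.

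**Figure D1:**
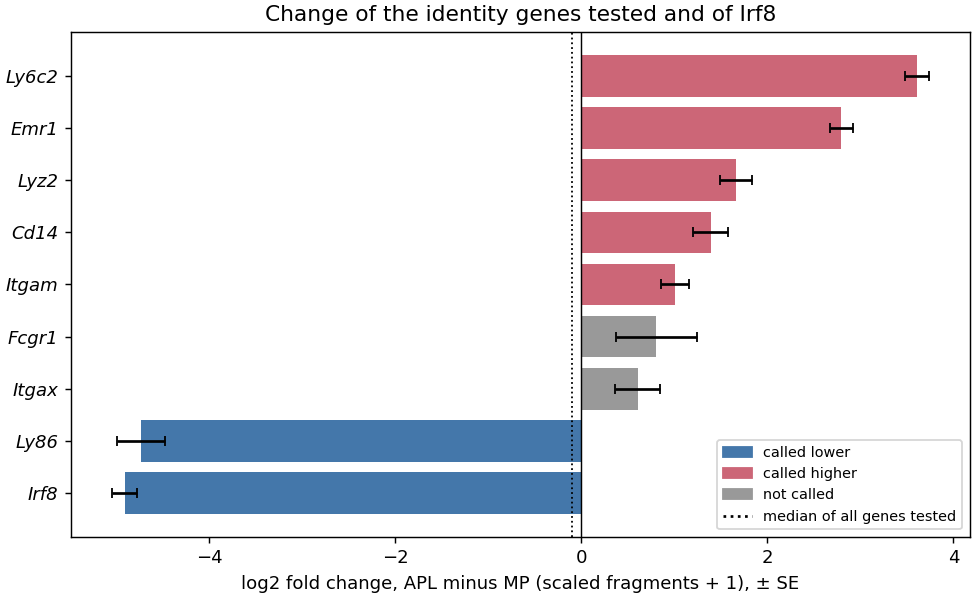
Horizontal bars give the log2 fold change of APL progenitors over normal MPs for the 8 identity genes tested and for Irf8, with standard errors from limma (n = 3 libraries per group). Ly86 at -4.74 stands beside Irf8 at -4.91, and the other 7 genes lie above the median of all genes tested, which the dotted line marks at -0.10.

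Ly86 encodes MD-1, a secreted glycoprotein that is carried on the cell surface by CD180 and tunes responses to bacterial lipopolysaccharide. It lies on chromosome 13 of GRCm38 at chr13:37345345-37419036. The MP libraries held 450, 414 and 504 scaled fragments of Ly86, and the APL libraries held 10.6, 22.5 and 17.3. Every APL library was thus far below every MP library. The log2 fold change was -4.74 ± 0.26 (SE, adjusted p = 5.8e-07 by limma). Only 3.56% of all genes tested had a larger decrease, close to the place of Irf8, which had -4.91 and a share of 3.27%. Irf8 itself had 3093, 2519 and 3285 scaled fragments in the MP libraries, and its APL values of 87.2, 114 and 91.3 were all far lower. It lies on chromosome 8, whose genes had a median log2 fold change 0.61 above that of the rest, while chromosome 13 with Ly86 differed from the rest by -0.015. Since the APL values of Ly86 rest on 9, 26 and 14 fragments before scaling, the size of the fall is imprecise, and it ranged from -4.97 to -3.58 over the 18 alternative settings.

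Cd180, the surface partner of MD-1, was lower as well. It had 244, 204 and 271 scaled fragments in the MP libraries and 16.5, 16.5 and 11.1 in the APL libraries, a log2 fold change of -3.95 ± 0.22 (SE, adjusted p = 7.0e-07 by limma). Both genes of this receptor pair were thus called lower. F13a1, the A subunit of coagulation factor XIII and a gene of classical monocytes, lies on the same chromosome from 36867178 to 37050244, at a distance of 295100 bases from Ly86. It moved in the opposite direction, from 4367 ± 501 to 30092 ± 1509.8 scaled fragments (log2 fold change 2.79). F13a1 was looked at beside Ly86 after its values were seen.

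Batf3, a basic leucine zipper factor that dendritic cells of the cross-presenting type require and that binds DNA together with Jun proteins and Irf8, was nearly absent from both populations. Its locus is chr1:191098414-191108943. Before scaling, the MP libraries held 3, 1 and 2 fragments and the APL libraries held 0 each. A count of 0 allows up to 3 fragments in a library, counting error only, so that no fold change is given. Neither population thus had more than 3 observed fragments in any library. When no filter on low values was applied, limma called Batf3 lower (adjusted p = 0.0075), a call that rests on these 1 to 3 fragments per MP library. Its relatives were measurable. In scaled fragments, Batf averaged 236 ± 52.5 in the MP and 396 ± 6.79 in the APL libraries, and Batf2 averaged 23.2 ± 4.95 and 47.1 ± 7.37. Both were called higher, by 0.77 and 1.00 on the log2 scale. Of the dimer partners, Jun was called lower (log2 fold change -0.69), although its libraries overlapped between the groups. Junb had a log2 fold change of 0.53 (adjusted p = 0.038) and Jund one of -0.27 (adjusted p = 0.37), and neither passed both thresholds of the limma test. Irf4, which can take the place of Irf8 on such sites, had at most 7.49 scaled fragments in any library.

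Ly6c2 gave the largest rise of the identity genes. It encodes Ly-6C2, a small lipid-anchored surface protein by which inflammatory monocytes are recognized and which immature myeloid cells also carry. The locus on the table's build is chr15:75108161-75111949. The MP libraries held 13305, 10722 and 13299 scaled fragments and the APL libraries held 146812, 149116 and 157410. The lowest APL library was thus more than 10 times the highest MP library. The log2 fold change was 3.61 ± 0.13 (SE), a 12.2-fold rise (adjusted p = 4.8e-08 by limma). By FPKM, Ly6c2 ranked between 91 and 108 among the genes of the MP libraries and 3 in each APL library, where it took between 0.605% and 0.610% of all fragments. The gene lies on chromosome 15, whose 563 genes tested had a median log2 fold change 0.58 above that of the rest, and measured against its own chromosome the log2 fold change of Ly6c2 was 3.15.

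The 2 Ly6C genes are close copies, which bears on the values of each. Ly6c1 lies 59323 bases from Ly6c2. In the annotation of the earlier mouse build NCBIM37, which was used for similarity only, the coding sequences of 396 bases were identical at 97.7% of positions, and 46.7% of the 50-base stretches of Ly6c2 also occurred in Ly6c1. The first 120 coding bases, counted from the start codon, are shown because few positions in them tell the genes apart, with capitals at the 6 bases that differ.
Ly6c2: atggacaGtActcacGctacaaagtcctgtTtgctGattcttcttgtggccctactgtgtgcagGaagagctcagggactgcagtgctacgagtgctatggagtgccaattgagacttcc
Ly6c1: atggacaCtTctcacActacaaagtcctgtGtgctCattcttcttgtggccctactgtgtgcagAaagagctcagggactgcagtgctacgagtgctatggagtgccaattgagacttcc
Ly6c1 itself was called higher, with 1628, 790 and 1019 scaled fragments in the MP libraries and 8251, 7093 and 16801 in the APL libraries. APL library 3 was well above the other APL libraries. Between 89.1% and 95.5% of the fragments of the pair were assigned to Ly6c2 in any library, and the sum of both genes, 13588 ± 1824 in normal MPs and 161827 ± 10740 in APL progenitors, had a log2 fold change of 3.58.

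The promoters of the gene with the largest fall and of the gene with the largest rise are shown for the sequence at each start site. Both are RefSeq windows on GRCm38.p6 of 250 bases before and 50 after the start. Ly86 is at chr13:37345095-37345394 on the plus strand and Ly6c2 is at chr15:75111922-75112221 on the minus strand. Capitals mark matches to the PU.1 core GAGGAAGT on either strand.
Ly86: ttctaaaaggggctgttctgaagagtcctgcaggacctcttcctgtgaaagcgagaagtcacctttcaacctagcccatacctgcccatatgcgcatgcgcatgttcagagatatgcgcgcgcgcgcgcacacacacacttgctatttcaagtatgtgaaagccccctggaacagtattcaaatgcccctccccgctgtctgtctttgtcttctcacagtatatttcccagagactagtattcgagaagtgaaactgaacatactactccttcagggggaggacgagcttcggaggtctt
Ly6c2: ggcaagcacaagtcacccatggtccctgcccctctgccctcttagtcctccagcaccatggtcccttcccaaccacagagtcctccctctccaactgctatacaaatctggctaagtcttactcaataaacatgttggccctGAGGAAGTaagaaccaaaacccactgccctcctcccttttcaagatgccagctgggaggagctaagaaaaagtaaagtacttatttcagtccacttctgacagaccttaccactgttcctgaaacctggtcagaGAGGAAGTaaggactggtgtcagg
The Ly6c2 window held 2 matches, and 3.20% of the 32851 windows of this length held at least 1. A second annotated start of Ly6c2 gave an overlapping window with the same 2 matches. Another 4 motifs were searched on both strands, namely the ETS-IRF composite element, the interferon-stimulated response element, the C/EBP site TTGCNNAA and the AP-1 site TGANTCA. The composite and the response element share letters and can overlap. They occurred in 2.72%, 3.44%, 10.8% and 7.81% of all windows. Windows were found for 8 of the 10 genes (the identity genes and Irf8). Beyond Ly6c2, the AP-1 letters in the window of Itgax were the only match, and no match to any of the 5 motifs was found in those of Ly86, Itgam, Fcgr1, Lyz2, Batf3 and Irf8. A match is a description of the letters and does not show binding.

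Lyz2 encodes lysozyme M, which cleaves bacterial cell walls and is made by monocytes, macrophages and granulocytes. At chr10:117277541-117282272, it had 9880, 6094 and 9687 scaled fragments in the MP libraries and 24867, 26845 and 27554 in the APL libraries. The APL libraries differed little among themselves, whereas MP library 2 was lower than the other MP libraries. The log2 fold change was 1.66 ± 0.17 (SE), or 3.16-fold (adjusted p = 3.6e-05 by limma), and it was 1.43 without MP library 2. Lyz1, the lysozyme of the gut, lies 5522 bases away. Its coding sequence of 447 bases matched that of Lyz2 at 95.1% of positions and shared 20.1% of the 50-base stretches. The first 120 coding bases differ at 11 positions, in capitals.
Lyz2: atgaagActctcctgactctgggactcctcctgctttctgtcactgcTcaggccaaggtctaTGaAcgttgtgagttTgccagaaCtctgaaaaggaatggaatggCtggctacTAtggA
Lyz1: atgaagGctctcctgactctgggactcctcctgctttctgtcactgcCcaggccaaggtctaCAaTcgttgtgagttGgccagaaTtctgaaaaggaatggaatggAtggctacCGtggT
Lyz1 was called higher too, from 50.4 ± 34.7 to 131 ± 13.1 scaled fragments. At least 99.1% of the pair's fragments were assigned to Lyz2 in every library, so the sum of the pair had the same log2 fold change of 1.66.

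Emr1 encodes F4/80, an adhesion receptor and the classical surface marker of mouse macrophages. The file lists it under its older symbol at chr17:57358686-57483529. The MP libraries had 126, 101 and 127 scaled fragments, and the APL libraries had 801, 885 and 781. Each APL library was more than 6 times as high as any MP library. This is a 6.94-fold rise, with a log2 fold change of 2.79 ± 0.13 (SE, adjusted p = 1.9e-07 by limma). Emr4, its relative, remained low, with 22.3 ± 7.66 and 13.2 ± 5.15 scaled fragments and an adjusted p of 0.10 by limma.

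Cd14 encodes the co-receptor that hands lipopolysaccharide to the TLR4 complex. The gene is on chromosome 18 from 36725067 to 36726654. It had 199, 126 and 194 scaled fragments in the MP libraries and 434, 405 and 501 in the APL libraries. All APL values were above all MP values, MP library 2 being the lowest. The rise was 2.62-fold, a log2 fold change of 1.39 ± 0.19 (SE, adjusted p = 1.7e-04 by limma), and 1.18 without MP library 2.

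Other parts of the lipopolysaccharide receptor were measured beside it. Tlr4, the signalling chain, rose from 252.5 ± 50.1 to 2072 ± 126 scaled fragments (log2 fold change 3.05, adjusted p = 2.5e-07 by limma). Lbp, the lipopolysaccharide binding protein, rose from 1285 ± 167 to 2030 ± 83.9 (log2 fold change 0.67). Ly96, which encodes MD-2 and is to TLR4 what Ly86 is to CD180, had 16.0 ± 6.16 and 25.0 ± 6.19 scaled fragments, and the groups overlapped (adjusted p = 0.12 by limma). Cd14 and Tlr4 were thus called higher while Ly86 and Cd180 were called lower in the same libraries.

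**Figure D2:**
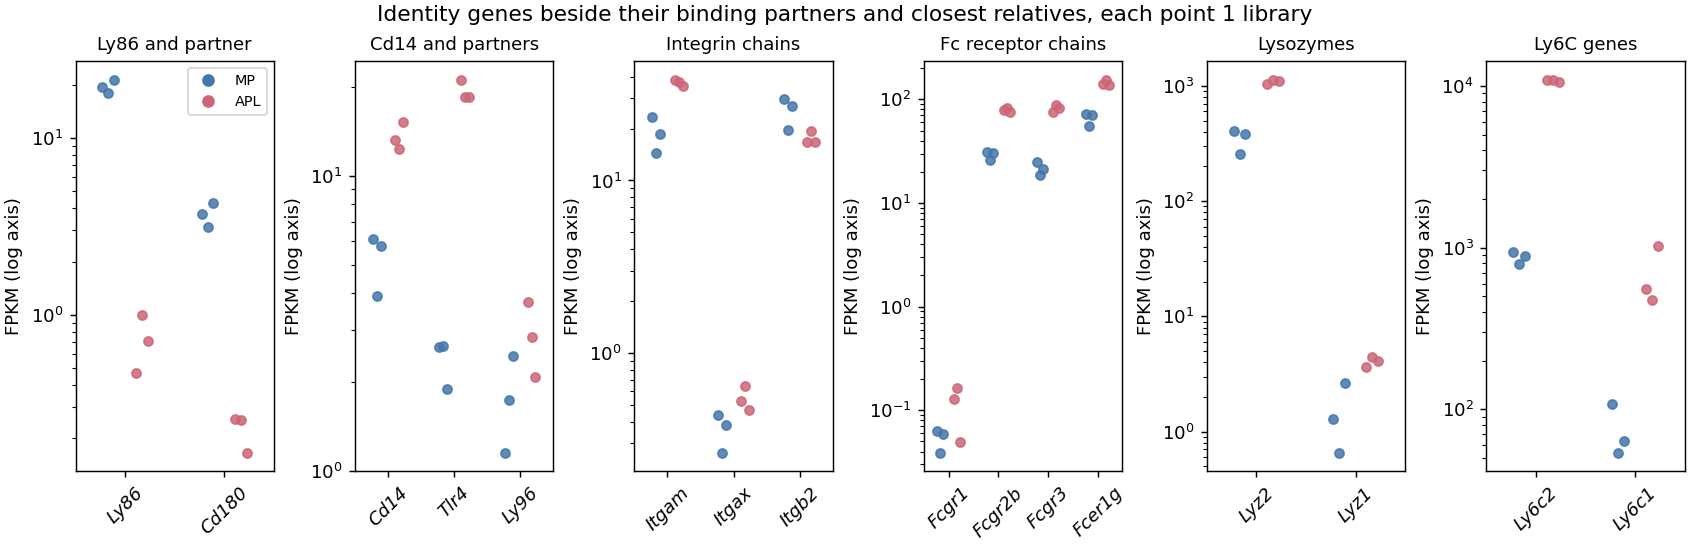
FPKM on a log axis for identity genes beside their binding partners and nearest relatives, with 1 point per library (blue for normal MPs, red for APL progenitors). Ly86 and Cd180 are lower in APL progenitors, Cd14 and Tlr4 are higher, and Itgam is higher while Itgb2 is not.

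Itgam and Itgax encode the αM and αX integrin chains, known as CD11b and CD11c, which pair with the β2 chain of Itgb2 to form complement receptors. Itgam, at chr7:128062640-128118491, had 3305, 2036 and 2674 scaled fragments in the MP libraries and 5441, 5318 and 5050 in the APL libraries. The APL libraries were all higher, and MP library 2 was again the lowest. Its log2 fold change was 1.01 ± 0.15 (SE), or 2.01-fold (adjusted p = 3.5e-04 by limma). It was 0.83 without MP library 2.

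Itgax, the monocytic and dendritic integrin chain at chr7:128129568-128150657, starts 11076 bases beyond the end of Itgam. It had 55.2, 33.3 and 48.8 scaled fragments in the MP libraries and 66.6, 82.1 and 59.3 in the APL libraries. The groups did not overlap, but the gap between them was smaller than the spread within either. The log2 fold change of 0.61 had a 95% interval from 0.05 to 1.16 and an adjusted p of 0.053 by limma, so that the gene was not called. The call depended on the setting. Itgax passed both thresholds in 6 of 18 alternatives, among them those without MP library 1 and without MP library 3, where the log2 fold change was 0.75 and 0.67. The 2 integrin chains therefore have APL levels that are far apart, 37.0 ± 1.52 FPKM for Itgam and 0.544 ± 0.0895 for Itgax. The coding sequences of the 2 genes shared no 50-base stretch.

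The partner chain did not follow Itgam upward. Itgb2 had 2441, 1613 and 2292 scaled fragments in the MP libraries and 1383, 1606 and 1377 in the APL libraries, a log2 fold change of -0.52 that missed the fold threshold (adjusted p = 0.013 by limma). Itgal, the αL chain of the lymphocyte function antigen, was called higher with a log2 fold change of 0.76. Itgad, the αD chain, had 18.8, 24.7 and 40.5 scaled fragments in the MP libraries and 38.2, 37.6 and 43.1 in the APL libraries and was not called.

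Fcgr1 encodes the high-affinity receptor for IgG, CD64, and was close to the limit of detection. At chr3:96282909-96293969, it had 4.68, 2.86 and 4.51 scaled fragments in the MP libraries and 9.43, 12.1 and 3.70 in the APL libraries. APL library 3 lay within the range of the MP libraries, and the others lay above it. The log2 fold change of 0.81 had a 95% interval from -0.19 to 1.802 (adjusted p = 0.13 by limma). Without APL library 3 it was 1.24 and the gene was called. The low-affinity receptors were expressed at higher levels per length. Fcgr3, which also marks the granulocyte-monocyte progenitor, went from 21.7 ± 3.10 to 81.8 ± 5.77 FPKM (log2 fold change 1.89 in scaled fragments), and the inhibitory Fcgr2b from 29.0 ± 2.89 to 78.9 ± 3.05 FPKM (1.41). Both were called higher, as was Fcer1g, the signalling chain shared by the activating receptors (log2 fold change 1.09, adjusted p = 4.9e-05 by limma). Fcgr4 had 0.933 ± 0.258 and 0.866 ± 0.202 FPKM and was not called.

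**Figure D3:**
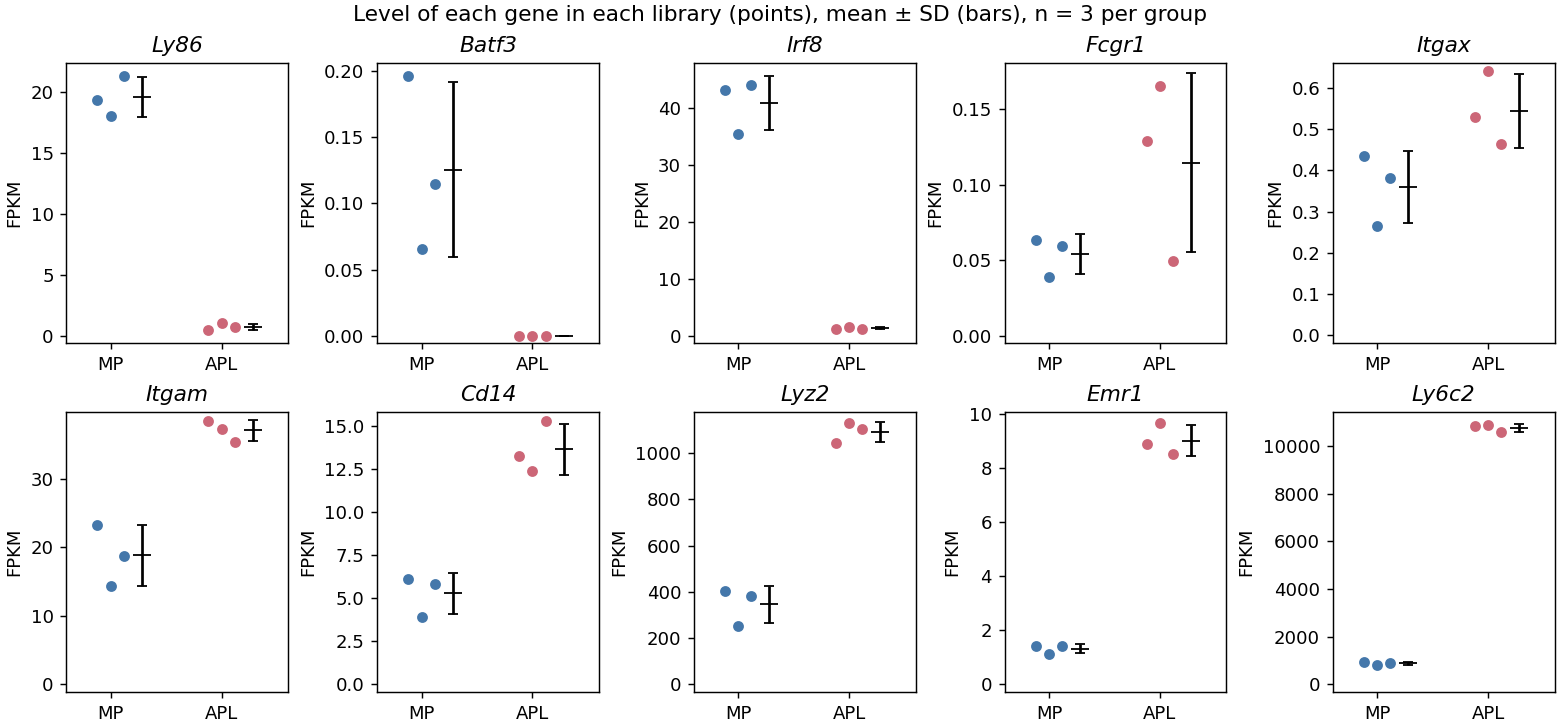
FPKM of each identity gene and of Irf8 in each library, on linear axes that differ between panels, with the mean and SD of 3 libraries beside the points. The panels of Ly86 and Irf8 fall from MP to APL, those of Ly6c2, Emr1, Lyz2, Cd14 and Itgam rise without overlap, and that of Fcgr1 overlaps.

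Per transcript length, the order of the genes was the same in both populations except for Ly86 and for Batf3 and Fcgr1, which changed places at the low end. In normal MPs, Ly6c2 was highest with 873 ± 77.7 FPKM, followed by Lyz2 with 346 ± 80.4, Ly86 with 19.5 ± 1.65, Itgam with 18.8 ± 4.46, Cd14 with 5.28 ± 1.20, Emr1 with 1.31 ± 0.167 and Itgax with 0.359 ± 0.0868. The libraries of Ly86 and Itgam overlapped, and those of the other neighbours in this order did not. In APL progenitors Ly6c2 reached 10786 ± 166 FPKM, Lyz2 1092 ± 43.7, Cd14 13.6 ± 1.48 and Emr1 9.002 ± 0.584. Ly86 came after Emr1 with 0.725 ± 0.263 FPKM, in the range of Itgax. Fcgr1 and Batf3 were lowest in both populations, with at most 0.196 FPKM in any library.

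Other genes of the monocytic, macrophage and dendritic lineages were called in both directions. Over 5 further lists, 85 of 88 genes were tested, of which 30 were called higher and 32 lower (35.3% and 37.6%, against 21.7% and 24.4% of all genes tested). Their median log2 fold change was -0.10, equal to that of all genes tested, with Fcgr4 as the middle gene of both. The directions differed between lists. The 20 partners and relatives of the identity genes, given above, held 10 higher and 2 lower (Cd180 and Jun).

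Among 20 further monocyte receptors and lysosomal or secreted proteins, 11 were called higher and 6 lower. Among the increases of genes with at least 100 scaled fragments in the higher population were those of F13a1, of Ifi30, a lysosomal thiol reductase (log2 fold change 2.62), of Cd68, a lysosomal membrane protein (2.16), and of Csf2ra, the α chain of the GM-CSF receptor (1.77). In scaled fragments, Cd68 averaged 147 ± 27.1 in the MP and 653 ± 17.4 in the APL libraries. Among the decreases were the receptors that tie monocytes to their growth factor and to fractalkine. Csf1r, the receptor of macrophage colony-stimulating factor, had 1533, 1284 and 1429 scaled fragments in the MP libraries and 390, 458 and 367 in the APL libraries (log2 fold change -1.81, adjusted p = 1.0e-06 by limma). Cx3cr1, the fractalkine receptor, fell from 165 ± 19.4 to 22.4 ± 2.33 (-2.82). Ms4a6c and Ctss, which encodes the lysosomal protease cathepsin S, had -2.05 and -1.61.

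The macrophage list held 6 higher and 8 lower of 18 genes tested. Many of these calls rest on few fragments. Mertk, C1qa, Trem2, Cd5l and Spic, all called lower, had at most 26 fragments before scaling in any library. The same holds for Msr1 among those called higher. The libraries of Mertk overlapped between the groups. Apoe, the lipid carrier apolipoprotein E, had the largest decrease, from 4155 ± 919 to 195 ± 21.0 scaled fragments (log2 fold change -4.39), and the hemoglobin scavenger receptor Cd163 fell from 112 ± 29.7 to 34.2 ± 5.13. Nr1h3, the lipid-sensing nuclear receptor LXRα, rose from 26.3 ± 2.65 to 223 ± 26.8 (log2 fold change 3.03). Hmox1, the heme-degrading oxygenase, Mrc1, the mannose receptor, and Slc40a1, the iron exporter, rose by 1.40, 1.30 and 1.14 on the log2 scale.

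Dendritic cell genes were called lower for 9 and higher for 2 of 16 genes. In every APL library, 7 of the 16 had at most 3 fragments before scaling. Some of those called lower were close to the limit of detection in normal MPs too. Before scaling, the MP libraries held 6, 3 and 8 fragments of Clec9a, and 6, 10 and 10 of Ccr7. Zbtb46, a zinc finger factor of conventional dendritic cells, had 286, 321 and 349 scaled fragments in the MP libraries and 1 fragment before scaling in each APL library. Dpp4 and Flt3, the receptor of a cytokine that dendritic cell precursors need, had log2 fold changes of -6.96 and -5.83, and the surface sialoglycoprotein Cd24a had -1.34. Id2, an inhibitor of E proteins, and Bst2, which tethers budding viruses, rose by 1.25 and 0.93 on the log2 scale. Bst2 lies on chromosome 8 with Irf8, as do Ifi30, Hmox1, Junb and Jund. The genes of that chromosome had a median log2 fold change 0.61 above that of the rest. The changes of these genes are given without subtracting this shift. Of the 11 transcription factors tested, 7 were called lower and 1 higher. Irf5 (log2 fold change -3.08), Egr1 (-1.40) and Irf7 (-1.31) were lower along with Irf8. Cebpb, a C/EBP factor of monocytes and granulocytes, rose from 423 ± 53.3 to 1662 ± 379 scaled fragments (log2 fold change 1.96). Klf4, another factor of the monocytic lineage that was looked at after its values were seen, had 233 ± 94.8 and 237.5 ± 27.3 scaled fragments (adjusted p = 0.75 by limma).

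**Figure D4:**
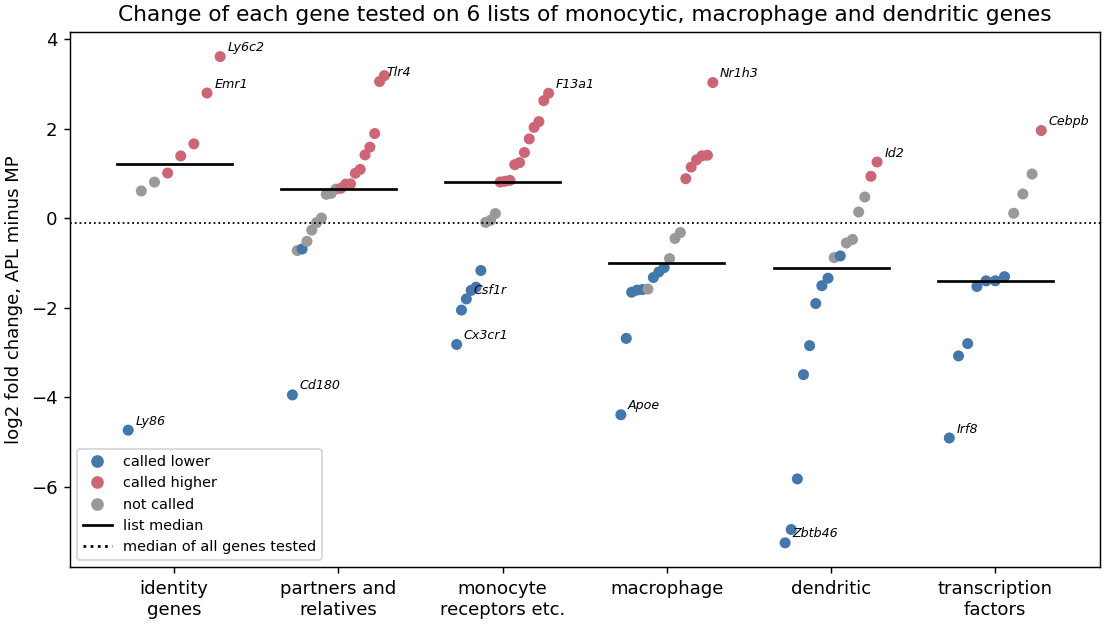
Each point is the log2 fold change of 1 gene tested, in 6 lists, colored by whether limma called it lower (blue), higher (red) or neither (gray). Black lines are list medians, from 1.20 for the identity genes to -1.40 for the transcription factors, and the dotted line is the median of all genes tested at -0.10.

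Markers of other lineages moved between the same libraries. The summed FPKM of 12 erythroid and megakaryocytic genes lay between 1567 and 2075 in the MP libraries and between 15.4 and 26.5 in the APL libraries, and 10 of the 11 tested were called lower. That of 16 granulocytic genes lay between 20484 and 28280 and between 72704 and 87316, with 7 called higher and 3 lower. A sum follows the most abundant genes, and the median log2 fold change of this list was 0.30, with 6 genes not called. Of all genes tested, 21.7% were called higher and 24.4% lower. In bulk RNA, fewer cells of a type and less RNA per cell cannot be told apart. The part of these shifts in the changes of the monocytic, macrophage and dendritic genes was not tested. The summed FPKM of 11 lymphoid genes was 251 to 276 in the MP libraries and 242 to 267 in the APL libraries. Of the 9 tested, 5 were called lower and 0 higher, with a median log2 fold change of -1.37. The defining genes Cd3e and Ms4a1 were at 3 fragments or fewer in every library. Stromal and endothelial genes summed to between 14.5 and 18.2 FPKM in the MP libraries and between 4.86 and 6.06 in the APL libraries, with 5 of 9 tested called lower and 3 higher.

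The gene whose level over the 6 libraries was most like that of each identity gene was sought among 11061 genes, by the Euclidean distance between centred log2 profiles. For Ly86 it was Itsn1 (distance 0.32, log2 fold change -4.59). For Ly6c2 it was Ptgir, the prostacyclin receptor (0.18), for Emr1 Slc4a8 (0.15), for Lyz2 Lmo1 (0.25), for Cd14 Casp4, an inflammatory caspase (0.23), and for Itgam Gca, a calcium-binding protein of myeloid cells (0.20). Itgax was nearest to Slc31a2 (0.25) and Fcgr1 to Aifm2 (0.76), while Irf8 was nearest to Galnt6 (0.31). These distances describe 6 libraries in 2 groups and carry no test.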

How the data were processed

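The labels of all 6 libraries name total RNA, TruSeq preparation and, in the submitters' processing notes, CASAVA 1.8, TopHat2 2.0.6 and mm10. The methods of the study name Cutadapt, STAR, mm9 and HTSeq-count instead; the loci follow GRCm38 and are given counted from 1. The authors deposited FPKM values and estimated fragments per gene; the deposited fragments are a signal scaled per library, since 88.2% to 89.7% of nonzero values under 100 fragments were whole multiples (within 0.02) of a library's step of 0.867 to 1.23. No count-based test was therefore used. Genes with at least 1 scaled fragment in at least 3 libraries were tested with limma 3.58.1 (lmFit, eBayes with a trend) in R 4.3.3, APL against MP. The code was tried beforehand on simulated data. That simulation changed far fewer genes than were called here and held no chromosome shift, so it does not vouch for the test in these data. Libraries of a group differed by 3.30 to 13.7 times counting variance (MP library 3 most), so none was a copy. The genes and lists were chosen with earlier results of these data known. Named were the identity genes, Irf8, their partners and relatives, and per further list up to 4 called genes each way with at least 100 scaled fragments in the higher group. Spi1 and Cd8a were not analysed here. Figures used matplotlib 3.10.9 in Python 3.11.15.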

Additional observations from a re-analysis of the deposited data

How the results depend on the processing

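Over 18 alternative fits (filters, pseudocounts, scalings, FPKM, voom, the block and each library left out), Ly86 and Irf8 stayed lower and Ly6c2, Emr1, Lyz2, Cd14 and Itgam higher, each past both thresholds. Itgax passed in 6 and Fcgr1 in 2 of its 15, none reversing. Without a filter 2 identity genes were lower, the added one being Batf3 (adjusted p = 0.0075 by limma) on 1 to 3 fragments. With 1 library left out, 1 identity gene was lower and 5 to 6 higher. All genes called lower numbered 3558, with adjusted p alone (no fold threshold) 5443 and with FPKM and a pseudocount of 1 (chosen after seeing the data) 2205; that setting called 18 further monocytic genes lower against 32, and the cause was not tested. Scaling to the same total moved the median of all genes to -0.23 from -0.10. The replicate block gave 3589 lower and 3164 higher genes against 3558 and 3167 and changed no identity gene's call; same-numbered libraries deviated together with correlations of 0.13, -0.0016 and 0.13, so the numbers were not taken as pairs. Depth limits Batf3 and Fcgr1.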
